A study of Arabidopsis thaliana with 18 samples.

Results

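Distal intergenic sites of BRIP1 and BRIP2 are places far from any annotated protein-coding gene where ChIP-seq peaks of both proteins coincided. ChIP-seq sequences the DNA that is immunoprecipitated with a protein, and a peak is a stretch where the ChIP fragments pile up above a control. A site was taken from the peak list of BRIP2-GFP replicate 1 when it lay on 1 of the 5 nuclear chromosomes and overlapped, by at least 1 bp, a peak in each of the other 3 lists (BRIP2-GFP replicate 2 and BRIP1-GFP replicates 1 and 2). Its summit, the base with the highest pileup, also had to lie outside every protein-coding gene, more than 1500 bp from every protein-coding transcription start site (TSS) and more than 500 bp from every protein-coding 3′ end. This rule gave 716 sites of 3015 shared by the 4 lists (23.7%), and of 7877 nuclear peaks of BRIP2 replicate 1. The other 2299 shared sites did not meet the distance rule, and 1597 of them had their summit outside protein-coding genes all the same.

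The study profiled the SWI/SNF ATPase BRM and its partners BRIP1 and BRIP2 in 14-day-old seedlings of Arabidopsis thaliana, grown on 1/2 MS medium at 22 °C in long days. The libraries used here are BRIP2-GFP in brm-1 (2 replicates) and BRIP1-GFP in brm-1 (2 replicates), immunoprecipitated with a GFP antibody (ab290). All 4 therefore come from plants that carry brm-1, a loss-of-function allele of BRM, and no library with functional BRM was analysed here. The promoter that drives each fusion, whether the endogenous BRIP genes were intact in these lines and whether replicates came from separate cultures are not given in the sources used here, so p-values measure only the spread between these libraries. The antibody field of the labels reads none for BRIP1 replicate 2 and GFP for the BRIP2 input, against their titles. Whole seedlings mix many tissues, and occupancy in more cells cannot be told apart from stronger occupancy in each cell.

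SWI/SNF complexes use ATP to slide or evict nucleosomes and so change how accessible DNA is. In Arabidopsis, BRM is the ATPase of the BAS class of these complexes, and BRIP1 and BRIP2 are closely related subunits of that class which carry a GLTSCR domain. Intergenic sequence away from a promoter can hold enhancers, distal promoters of long regulatory regions and the start sites of non-coding RNAs, among them the primary transcripts of microRNAs.

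The sequences below were chosen because they carry the 3 motifs that set these sites apart from the surrounding sequence or from other shared sites, with the strongest site, which carries none of the 18 motifs searched, beside them. Each is 151 bp of the plus strand centred on the BRIP2 replicate 1 summit, read from the RefSeq TAIR10.1 genome. Capitals mark a G-box (CACGTG), a TCP site (GGNCCAC) or an RY element (CATGCA), each on either strand. Sites are named by the gene with the nearest TSS, or by the microRNA gene they lie upstream of.
AT1G24265 site, chr1:8598611-8598761: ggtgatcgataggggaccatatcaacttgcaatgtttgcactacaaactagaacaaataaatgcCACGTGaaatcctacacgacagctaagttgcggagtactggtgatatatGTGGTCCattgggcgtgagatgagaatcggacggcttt
BRG1 site, chr5:18215772-18215922: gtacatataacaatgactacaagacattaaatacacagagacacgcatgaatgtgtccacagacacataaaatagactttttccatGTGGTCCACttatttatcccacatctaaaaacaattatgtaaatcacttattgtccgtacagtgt
MYB74 site, chr4:2620535-2620685: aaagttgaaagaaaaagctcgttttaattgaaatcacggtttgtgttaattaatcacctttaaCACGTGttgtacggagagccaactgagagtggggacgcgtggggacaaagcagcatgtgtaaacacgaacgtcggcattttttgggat
ERF8 site, chr1:19825436-19825586: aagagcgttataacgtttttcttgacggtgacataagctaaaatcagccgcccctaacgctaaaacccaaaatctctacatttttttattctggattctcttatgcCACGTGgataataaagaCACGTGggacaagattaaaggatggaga
ERF4 site, chr3:5125413-5125563: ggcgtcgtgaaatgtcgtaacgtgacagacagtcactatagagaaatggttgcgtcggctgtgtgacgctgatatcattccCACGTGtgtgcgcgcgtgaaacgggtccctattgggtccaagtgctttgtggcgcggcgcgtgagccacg
MIR167a site, chr3:8107750-8107900: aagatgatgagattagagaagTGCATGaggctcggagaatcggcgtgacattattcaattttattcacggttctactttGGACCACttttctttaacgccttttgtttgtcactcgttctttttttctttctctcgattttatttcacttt
MIR167d site, chr1:11136238-11136388: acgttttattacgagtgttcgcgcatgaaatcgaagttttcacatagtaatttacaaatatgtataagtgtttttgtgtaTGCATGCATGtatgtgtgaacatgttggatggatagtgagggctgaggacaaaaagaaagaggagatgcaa
AT5G64730 site, chr5:25876534-25876684: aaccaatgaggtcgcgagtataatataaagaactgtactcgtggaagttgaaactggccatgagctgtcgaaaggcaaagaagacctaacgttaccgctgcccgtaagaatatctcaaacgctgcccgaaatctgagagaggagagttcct
The AT1G24265 window holds a G-box and a TCP site, the BRG1 window a TCP site that matches on both strands, and the ERF8 window a pair of G-boxes. The MYB74 and ERF4 windows hold 1 G-box each. The MIR167a window holds a TCP site beside the summit and an RY element farther out, and the MIR167d window holds a run of overlapping RY elements.

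Median fold enrichment, the ratio of the pileup to the local control at the summit as the peak caller gives it, was 3.45 and 3.26 in the BRIP2 replicates and 2.86 and 3.03 in the BRIP1 replicates. Single sites ran from 1.19 to 7.69 and from 1.51 to 7.10 in the BRIP2 replicates, and from 1.21 to 6.93 and from 1.11 to 7.30 in the BRIP1 replicates. Median pileups at the summit, recovered from fold and p-value, were 107 and 80 fragments for BRIP2 and 93.5 and 129.5 fragments for BRIP1. Summits of the other 3 lists lay a median of 42, 41 and 39 bp from that of BRIP2 replicate 1, and 79.2 to 81.0% of them fell within 100 bp. At the other shared sites these gaps were 46, 48 and 43 bp, with 77.3 to 78.5% within 100 bp, and the rule itself requires overlapping peaks. Over the 716 sites, Spearman's rho of fold was 0.82 between the BRIP2 replicates, 0.84 between the BRIP1 replicates and 0.82 between the means of the proteins. These points share a local control within a list, and some share a peak, since the sites met 712, 714 and 709 distinct peaks in the other 3 lists.

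Distal sites had a higher fold than the other shared sites in every library. The medians were 3.45 against 3.29 and 3.26 against 3.09 in the BRIP2 replicates, and 2.86 against 2.62 and 3.03 against 2.77 in the BRIP1 replicates. The difference averaged 0.10 ± 0.03 on the log2 scale (SD, n = 4 libraries; exact two-sided sign-flip test, p = 0.13, the smallest that 4 libraries allow), and 0.05 with peaks of −log10 q of at least 10 alone. Quartiles overlapped widely, as the plot of fold by library shows. Peaks at distal sites were also wider, with medians of 808.5 against 790 bp and 694 against 653 bp in the BRIP2 replicates, and 527 against 507 bp and 676.5 against 633 bp in the BRIP1 replicates. That difference of 30.8 ± 13.3 bp (SD, n = 4 libraries; exact sign-flip test, p = 0.13) turned to -0.75 bp when overlaps had to be 50% reciprocal. It was 13.5 bp against the other shared intergenic sites alone and 19 bp without BRIP2 replicate 2.

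**Figure D1:**
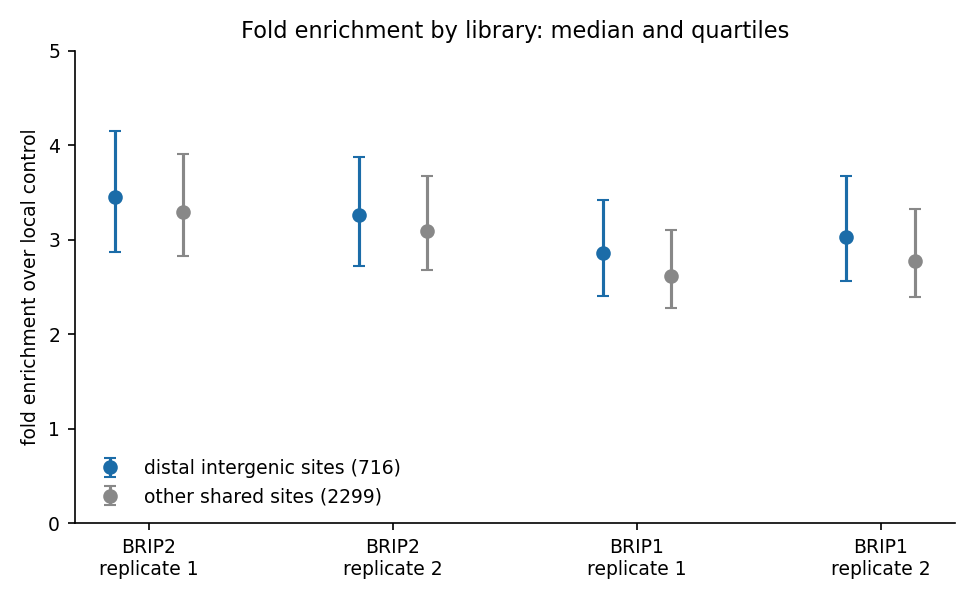
Median fold enrichment over the local control (y axis) in each library (x axis) for the 716 distal sites (blue) and the 2299 other shared sites (grey), with bars from the first to the third quartile. The blue median is above the grey one in all 4 libraries (3.45 against 3.29 in BRIP2 replicate 1), and the bars overlap.

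In 3 of the 4 lists, peaks at distal positions were found in all the other lists more often than the remaining peaks of the same list. Of the distal peaks of BRIP2 replicate 1, 716 of 1417 were shared by all lists (50.5%, 95% Wilson interval 47.9 to 53.1%), against 2299 of 6460 other peaks (35.6%, 34.4 to 36.8%). This difference of 14.9 percentage points was 9.91 with 50% reciprocal overlap. In BRIP2 replicate 2 these shares were 59.6% and 46.5%. In BRIP1 replicate 2 they were 60.4% (57.6 to 63.1%) and 57.3% (55.8 to 58.8%), with overlapping intervals. In BRIP1 replicate 1, the shortest list with 3637 nuclear peaks, they were 86.8% and 88.1%. These intervals cover counting error only. Distal peaks also had the higher median fold within each list. The medians were 2.74 against 2.51 and 2.81 against 2.60 in the BRIP2 lists, and 2.72 against 2.52 and 2.61 against 2.42 in the BRIP1 lists. The part of fold in the sharing was not tested. Distal peaks made up 18 and 19.9% of the BRIP2 lists and 24.5 and 22.9% of the BRIP1 lists, so both BRIP1 lists were above both BRIP2 lists (BRIP2 minus BRIP1 -4.75 percentage points, exact two-sided permutation test, p = 0.33, the smallest that 2 against 2 libraries allow). List lengths moved with this, at 7877 and 6288 nuclear peaks for BRIP2 and 3637 and 5343 for BRIP1, and their part in the result was not tested.

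The sites crowded towards the near edge of what the rule allowed. Median distance to the nearest protein-coding TSS was 2656.5 bp (quartiles 2033 and 3647 bp, range 1504 to 61474 bp), against 4918 bp over all sequence that meets the rule, which is 24.4% of the nuclear genome. By distance, 166 sites lay 1500 to 2000 bp from the TSS, 265 at 2000 to 3000 bp, 226 at 3000 to 5000 bp, 53 at 5000 to 10000 bp and 6 beyond 10000 bp. The rule-meeting sequence had 31.7% of its bases in the last class. Median fold in BRIP2 replicate 1 was 3.49, 3.49, 3.40 and 3.55 over the first 4 classes and 1.52 in the last. At the edge of the rule, the site nearest to a TSS, 1504 bp upstream of YSL1, had folds of 3.32 and 3.80 for BRIP2 and 2.99 and 2.68 for BRIP1, and the closest one left out, 1499 bp upstream of AT1G64380, had 3.49 and 3.30 for BRIP2 and 2.92 and 3.30 for BRIP1. At the 3′ edge, the AT5G40460 site, 501 bp from the closest protein-coding 3′ end, had 3.11 and 3.30 for BRIP2 and 2.43 and 2.80 for BRIP1. The AT5G49100 site, left out at 498 bp from such an end, had 3.58 and 3.45 for BRIP2 and 2.77 and 3.27 for BRIP1. Both are named by the nearest TSS, and the 3′ end may belong to another gene.

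Most sites faced the 5′ end of their nearest gene. Of the 716, 501 (70.0%) lay upstream of the nearest TSS, against 59.7% of the rule-meeting sequence and 63.1% of that within 10000 bp of a TSS. Divergent gene pairs, which share the interval between their 5′ ends, held 33.8% of the sites and 28.4% of the rule-meeting sequence. Convergent pairs held 15.8% of the sites and 19.9% of the sequence. Annotated genes of any class other than protein-coding, pseudogenes and rRNA genes included, covered 83 sites (11.6%), 64 of them in a lncRNA gene. All these classes together covered 35.1% of the rule-meeting sequence and 30.2% of that within 10000 bp. The share of that sequence in lncRNA genes alone was not measured. The chromosomes held 200, 127, 129, 103 and 157 sites (chromosomes 1 to 5), which is 21.4 to 27.3% of the shared sites of each.

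A few sites sat over DNA where the control itself was high. At 10 of the 716 sites (1.40%), the recovered local control exceeded 2 times the library background in at least 1 list, against 5 of the other shared sites (0.217%). Folds there ran from 1.11 to 2.46. These 10 include the 2 sites with their summit in an rRNA gene (AT3G41768 and AT2G01010, folds from 1.19 to 1.81). They also include 5 of the 6 sites beyond 10000 bp. The farthest, 61474 bp upstream of AT3G32980, had 1.61 and 1.78 for BRIP2 and 1.60 and 1.43 for BRIP1. The remaining far site, 15574 bp upstream of AT2G06845, had ordinary folds of 3.65 and 2.60 for BRIP2 and 3.05 and 2.89 for BRIP1. Without the 10 sites, the difference in fold from the other shared sites was as large (0.10 on the log2 scale, 706 sites).

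The strongest sites, ranked by their mean rank of fold over the 4 libraries, were not those of one gene family. The site 3508 bp past the start of AT5G64730, on the 3′ side of that gene, ranked first, with folds of 7.65 and 7.10 in the BRIP2 replicates and 6.25 and 6.31 in the BRIP1 replicates. The site 2706 bp upstream of GIS, a C2H2 zinc finger factor that promotes trichome formation, had 7.69 and 6.31 for BRIP2 and 6.93 and 7.07 for BRIP1. Its relative ZFP8, which acts in the same trichome pathway, had a site 2496 bp upstream with 6.42 and 4.95 for BRIP2 and 6.31 and 6.28 for BRIP1. In both, the lowest of the 4 values was that of BRIP2 replicate 2, and the uncentred values of the proteins overlapped. Median folds over all shared sites were 3.32 and 3.14 for BRIP2 and 2.65 and 2.82 for BRIP1. Once each library was centred on that median, both BRIP2 values lay below both BRIP1 values at GIS and ZFP8. This centred order was found at 32.1% of distal sites and 26.8% of all shared sites.

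The third site lay in the interval between AT1G24260 (SEP3, a MADS-box factor of floral organ identity) and AT1G24265, inside an annotated lncRNA gene, and had folds of 7.01 and 6.60 for BRIP2 and 6.0 and 6.45 for BRIP1. Upstream of BRG1, which encodes a RING-finger protein related to the E3 ligase BOI, 2 sites were among the 6 best. The nearer one, 2739 bp from the TSS, had 6.36 and 6.82 for BRIP2 and 6.03 and 7.30 for BRIP1. The one 4804 bp away had 6.48 and 6.48 for BRIP2 and 6.0 and 6.62 for BRIP1. At these 3 sites every value of every library was at or above 6.0, and the uncentred values of the proteins overlapped at both BRG1 sites. After centring, both BRIP2 values lay below both BRIP1 values at all 3, as at 32.1% of all distal sites.

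**Figure D2:**
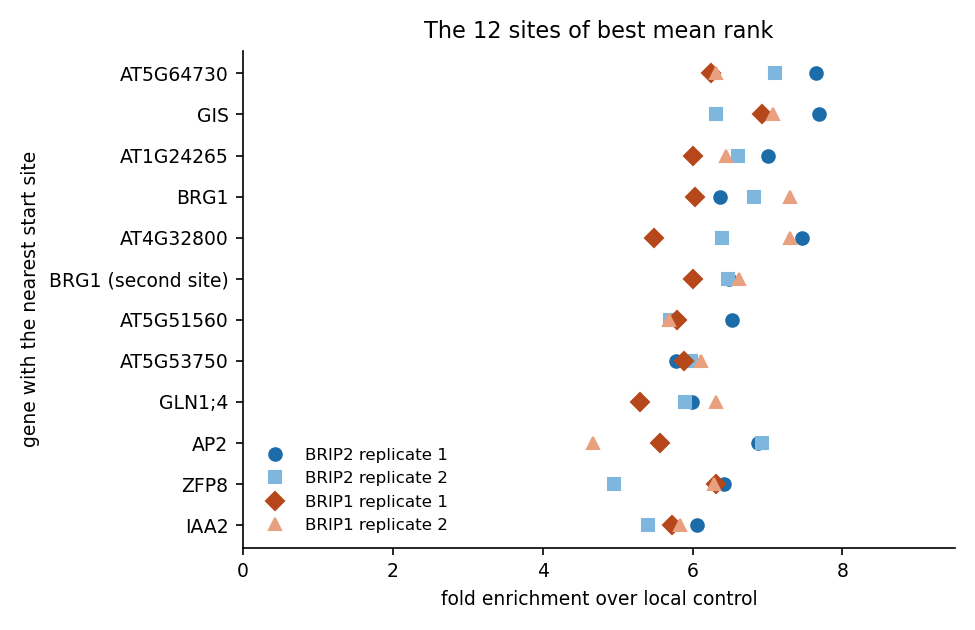
Fold enrichment over the local control (x axis) in each of the 4 libraries (symbols) at the 12 distal sites of best mean rank (y axis, named by the gene with the nearest TSS). Values run from 4.67 (AP2, BRIP1 replicate 2) to 7.69 (GIS, BRIP2 replicate 1), and the spread among libraries is widest at AP2 and AT4G32800.

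Of the remaining top 12, the AP2 site had the widest gap between the means of the proteins. AP2, a factor of floral organ identity and flowering time, had a site 2819 bp upstream with folds of 6.87 and 6.93 for BRIP2 and 5.57 and 4.67 for BRIP1. IAA2, an Aux/IAA repressor of auxin response, had one 4802 bp upstream with 6.06 and 5.41 for BRIP2 and 5.73 and 5.83 for BRIP1. GLN1;4, a cytosolic glutamine synthetase, had one on its 3′ side, 4662 bp from the TSS, with 6.0 and 5.90 for BRIP2 and 5.30 and 6.31 for BRIP1. Before centring, the values of the proteins overlapped at IAA2 and GLN1;4. Both BRIP2 values were the higher ones at AP2, as in the medians over all shared sites. The share of all sites with that uncentred order was not counted. After centring, both BRIP2 values lay below both BRIP1 values at IAA2 and GLN1;4, as at 32.1% of all distal sites. The centred values overlapped at AP2. The centred BRIP2 minus BRIP1 difference at AP2 was 0.20 on the log2 scale (limma adjusted p = 0.487). AT4G32800, AT5G51560 and AT5G53750 complete the 12, with folds from 5.48 to 7.46.

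The G-box and the TCP site were the motifs that most set the sites apart from sequence of the same class. The G-box is the core of elements bound by bHLH and bZIP factors in plants, and TCP factors bind the TCP site. In windows of 201 bp centred on the summit, 137 of 716 sites (19.1%, 95% Wilson interval 16.4 to 22.2%) held a G-box, against 452 of 2299 other shared sites (19.7%) and 1.92% of 137613 windows of that length tiled over all rule-meeting sequence. A TCP site was present at 141 sites (19.7%, 16.9 to 22.8%), against 16.5% of the other shared sites and 2.57% of the tiles. An ABRE (ACGTGNC, which overlaps a G-box in part), the element of abscisic acid response, was present at 17.5%, against 19.6% of other shared sites and 2.53% of tiles. A total of 23 sites held both a G-box and a TCP site, 461 held neither, and 55 held none of the 18 motifs searched. Median GC content was 36.3% at the distal sites, 36.3% at the other shared sites and 34.8% in the tiles.

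The RY element was commoner at distal sites than at the other shared sites. It is bound by B3-domain factors and is known from seed promoters. It was present at 123 sites (17.2%, Wilson interval 14.6 to 20.1%), against 248 other shared sites (10.8%, 9.58 to 12.1%) and 9.42% of tiles. The evening element (AAAATATCT), which clock factors bind, was rarer, at 3 sites (0.419%, 0.143 to 1.22%), against 43 other shared sites (1.87%, 1.39 to 2.51%) and 1.01% of tiles. A GAGA repeat (GAGAGAGA) was present at 8.24% of distal sites, 9.70% of the other shared sites and 2.03% of tiles. W-boxes (TTGACC or TTGACT), bound by WRKY factors, were present at 28.9%, 32.0% and 20.0% of the 3 classes in the order distal, other shared and tiles. Matches of both strands are counted, and a match is a run of letters, not a shown binding site.

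The matches had different shapes around the summit. G-box matches at distal sites were densest in the 50 bp before and after it, at 1.62 and 1.45 per kb, against 0.104 per kb in the tiled sequence. TCP sites were densest at 1.34 and 1.65 per kb in the same bins, against 0.140 per kb. RY elements showed no such centre. Their density was 1.40 and 1.31 per kb in those bins, 1.40 per kb in the bin 100 to 150 bp after the summit and 1.37 per kb 300 to 350 bp after it, and it ran from 0.531 to 1.40 per kb over the 500 bp on each side, against 0.586 per kb in the tiles.

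**Figure D3:**
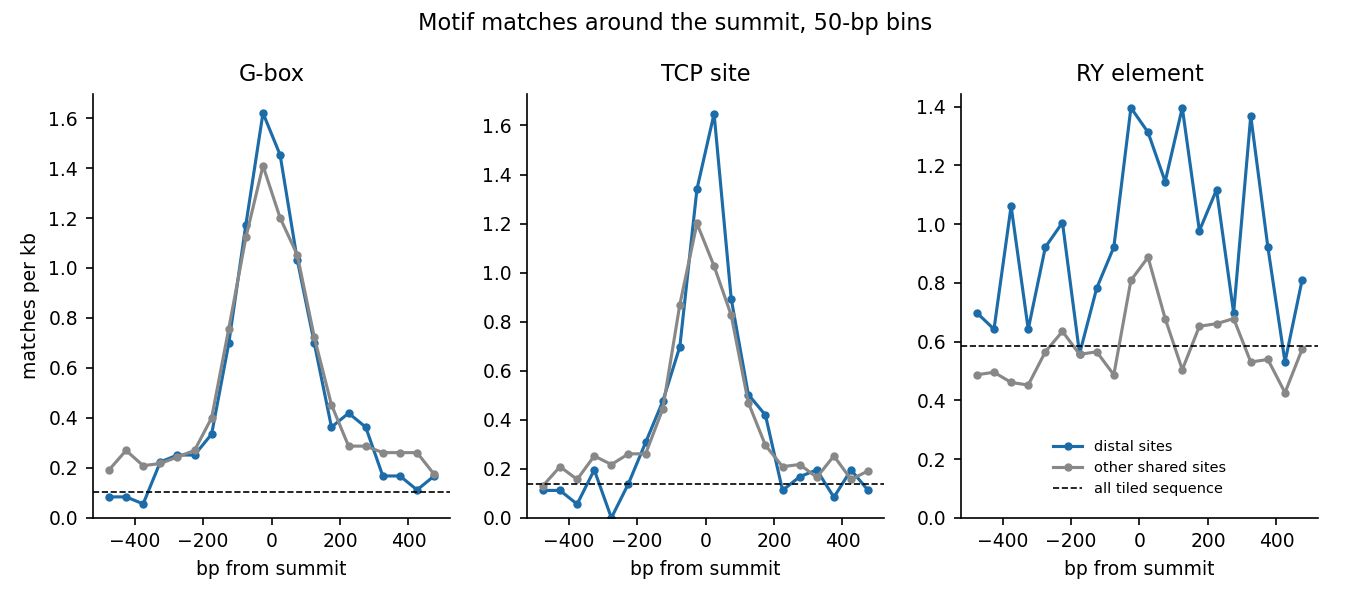
Matches per kb (y axis) of the G-box, the TCP site and the RY element in 50-bp bins against distance from the summit in bp (x axis), for distal sites (blue) and other shared sites (grey), with the density over all tiled rule-meeting sequence as a dashed line. G-box and TCP site matches centre on the summit in both classes, and RY elements are spread over the whole 1 kb at distal sites.

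Sites with a G-box had a higher fold than sites without it. The medians were 3.81 against 3.37 and 3.51 against 3.18 in the BRIP2 replicates, and 3.05 against 2.80 and 3.32 against 2.99 in the BRIP1 replicates. The difference was 0.15 ± 0.02 on the log2 scale and was positive in 4 of 4 libraries (SD, n = 4; exact sign-flip test, p = 0.13, 0.15 after Benjamini-Hochberg adjustment over the 18 motifs). For the TCP site it was 0.11 ± 0.03, also in 4 of 4 libraries (SD, n = 4; exact sign-flip test, p = 0.13, adjusted p = 0.15). Of the 18 motifs, 12 were higher and 3 lower in all 4 libraries, and with 4 libraries none could pass 0.05.

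Genes of transcription factors were frequent neighbours. The 716 sites had 656 different nearest genes, 2.39% of 27444 protein-coding genes. Of 917 genes that the symbols put in a transcription factor family, 96 (10.5%) were the nearest gene of a site. These genes had 109 sites (15.2% of the sites), while they were nearest to 4.25% of the rule-meeting sequence, to 5.80% of that within 10000 bp of a TSS and to 9.22% of the other shared sites. The lists rest on gene symbols, were chosen with results of these data known and leave out factors whose names do not show a family.

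The families differed in how many members had a site. AP2, PLT and RAV genes had 6 of 21 with a site (28.6%), GATA and DOF genes 10 of 49 (20.4%), ERF and DREB genes 12 of 64 (18.8%), TCP genes 4 of 22 (18.2%), MYB genes 19 of 125 (15.2%) and homeodomain genes 13 of 103 (12.6%). By its symbols RAP2.7 is counted both with the AP2, PLT and RAV genes and with the ERF and DREB genes. At the other end, bHLH genes had 1 of 34 (2.94%), bZIP genes 1 of 39 (2.56%) and MADS-box genes 3 of 103 (2.91%), close to the 2.39% of all protein-coding genes. These shares cover only genes whose symbol shows the family. The bHLH share leaves out BIM1, SPT and BEE1, bHLH genes by other names that were also nearest genes of a site. The families also differ in the sequence beside them. AP2, PLT and RAV genes had 0.978% of the sites and 0.278% of the rule-meeting sequence within 10000 bp of a TSS. These shares were 1.54 and 0.235% for GATA and DOF, 1.96 and 0.518% for ERF and DREB, and 0.559 and 0.171% for TCP genes. They were 2.79 and 1.21% for MYB, 2.37 and 0.814% for homeodomain, 0.140 and 0.204% for bHLH, 0.140 and 0.0922% for bZIP and 0.419 and 0.431% for MADS-box genes. Of the other shared sites, 0.348% were nearest to AP2, PLT and RAV genes, 0.565% to GATA and DOF, 1.22% to ERF and DREB and 0.304% to TCP genes. That share was 0.783% for MYB, 1.13% for homeodomain, 0.478% for bHLH, 0.304% for bZIP and 0.304% for MADS-box genes. The light and clock list had 1 of 55 (1.82%). It was nearest to 0.140% of distal sites, 0.134% of the rule-meeting sequence and 0.783% of the other shared sites.

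**Figure D4:**
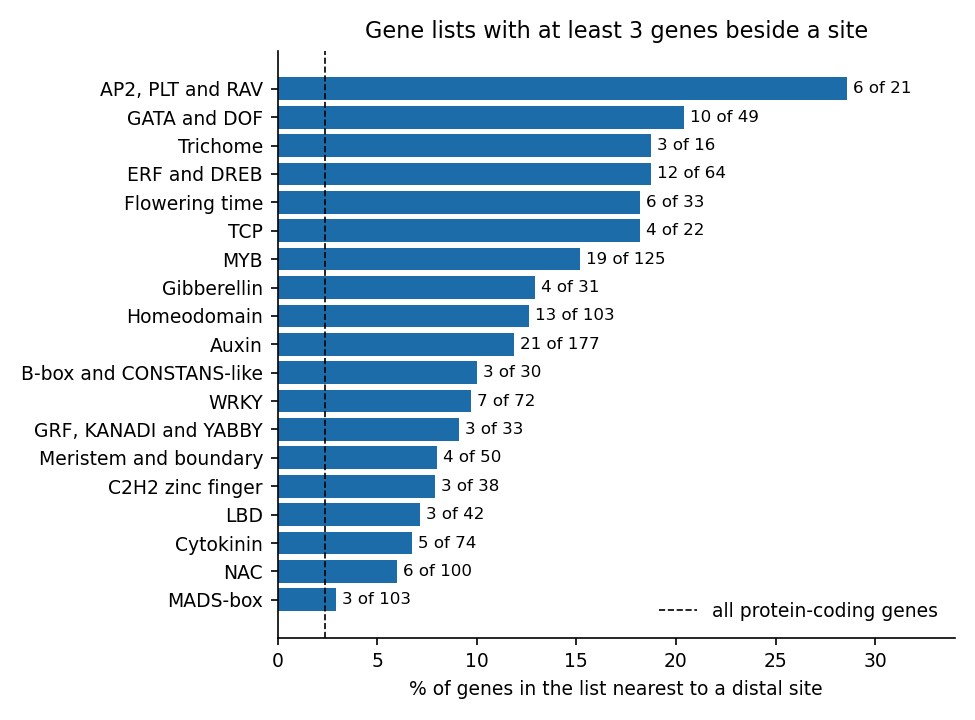
Percent of the genes of each list that were the nearest gene of a distal site (x axis) for the lists with at least 3 such genes (y axis), with the counts beside the bars and the share of all protein-coding genes (2.39%) as a dashed line. Bars run from 3 of 103 MADS-box genes to 6 of 21 AP2, PLT and RAV genes.

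The strongest sites of the families ranged widely in fold. MYB74, a MYB factor of stress response, had a site 2238 bp past its start on the 3′ side with folds of 6.52 and 4.95 for BRIP2 and 4.74 and 4.96 for BRIP1. HB5, an HD-ZIP factor, had one with 5.25 and 5.03 for BRIP2 and 4.31 and 4.96 for BRIP1. HB-2, an HD-ZIP factor of shade avoidance, had one 1698 bp upstream with 5.64 and 4.01 for BRIP2 and 4.86 and 5.0 for BRIP1. Before centring, the values of the proteins overlapped at MYB74 and HB-2. After centring both BRIP2 values lay below both BRIP1 values at HB-2, as at 32.1% of all distal sites. At HB5 both BRIP2 values were above both BRIP1 values before centring, as were the medians over all shared sites. The centred difference at HB5 was -0.09 on the log2 scale (limma adjusted p = 0.752).

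The ethylene response factors ERF4 and ERF8, repressors with an EAR motif, had sites with a G-box. The ERF8 site, 3112 bp upstream, had 4.63 and 4.75 for BRIP2 and 3.85 and 4.29 for BRIP1. The ERF4 site, 4185 bp past its start beyond the 3′ end, had 5.18 and 4.95 for BRIP2 and 3.48 and 4.10 for BRIP1. WRKY40, a repressor in defence and abscisic acid response, had a site 3056 bp upstream with 5.12 and 5.16 for BRIP2 and 4.09 and 4.36 for BRIP1. At all 3, both BRIP2 values were above both BRIP1 values before centring, as were the medians over all shared sites. The centred BRIP2 minus BRIP1 differences were -0.03 at ERF8, 0.18 at ERF4 and 0.04 at WRKY40 on the log2 scale, and none of them was called.

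Of the meristem and boundary list, 4 of 50 genes had a site (8%). The list was nearest to 0.698% of distal sites and 0.435% of the other shared sites. It was nearest to 0.296% of the rule-meeting sequence and 0.419% of that within 10000 bp of a TSS. STM, which keeps the shoot meristem undifferentiated, had one 3817 bp upstream with 3.16 and 3.05 for BRIP2 and 2.52 and 2.66 for BRIP1. BRC1, a gene of the TCP list that represses the growth of axillary buds, had one 2025 bp upstream with 3.75 and 3.14 for BRIP2 and 3.40 and 3.98 for BRIP1. Of the flowering time list, 6 of 33 genes had a site (18.2%). That list was nearest to 0.838% of distal sites and 0.304% of the other shared sites. It was nearest to 0.133% of the rule-meeting sequence and 0.194% of that within 10000 bp of a TSS. AP1, which specifies floral meristems, had a site 2557 bp upstream with 4.82 and 4.63 for BRIP2 and 5.02 and 5.34 for BRIP1. The others were SMZ, TEM1, RAP2.7, CDF1 and CDF3.

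Of 177 auxin genes, 21 had a site (11.9%, against 2.39% of all protein-coding genes), with 25 sites in all. These were 3.49% of the distal sites, against 1.70% of the other shared sites. Auxin genes were nearest to 1.07% of the rule-meeting sequence and 1.43% of that within 10000 bp of a TSS. ARF11, an auxin response factor, had one 3558 bp upstream with 5.60 and 4.91 for BRIP2 and 5.05 and 5.08 for BRIP1. ARF6, an activating auxin response factor, had one 2177 bp upstream with 3.39 and 3.80 for BRIP2 and 3.54 and 3.49 for BRIP1. YUC5, an enzyme of auxin synthesis, had one 5584 bp upstream with 4.51 and 3.94 for BRIP2 and 3.20 and 3.65 for BRIP1. Before centring, the values of the proteins overlapped at ARF11 and ARF6. Both BRIP2 values were the higher ones at YUC5, as in the medians over all shared sites. After centring, both BRIP2 values lay below both BRIP1 values at ARF11 and ARF6, as at 32.1% of all distal sites. The centred difference at YUC5 was 0.06 on the log2 scale.

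In the gibberellin list, 4 of 31 genes had a site (12.9%). The list was nearest to 0.559% of distal sites and 0.435% of the other shared sites. It was nearest to 0.186% of the rule-meeting sequence and 0.270% of that within 10000 bp of a TSS. RGL1 and GAI encode DELLA repressors of gibberellin response. The RGL1 site, 4145 bp upstream, had 4.59 and 4.62 for BRIP2 and 4.99 and 4.62 for BRIP1. The GAI site, 2174 bp upstream, had 4.37 and 4.25 for BRIP2 and 3.97 and 4.53 for BRIP1. The other genes were GA20OX3 and GA3OX1, which encode enzymes of gibberellin synthesis. The cytokinin list had 5 of 74 genes with a site (6.76%). It was nearest to 0.838% of distal sites and 0.783% of the other shared sites. Its share was 0.358% of the rule-meeting sequence and 0.524% of that within 10000 bp of a TSS.

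Sites lay upstream of 6 of 326 annotated microRNA genes, counting those within 1500 bp of the start, and 17 had any shared site there. That is 1.84% of the microRNA genes, and these 6 sites are 0.838% of the distal sites, against 0.478% of the other shared sites and 0.590% of the rule-meeting sequence. MIR167a, MIR167c and MIR167d encode miR167, which targets ARF6 and ARF8, and miR160 targets ARF10, ARF16 and ARF17. Of these targets, ARF6 and ARF10 were nearest genes of a site, and ARF8, ARF16 and ARF17 were not. The MIR160a site, 1056 bp upstream, had folds of 3.10 and 3.51 for BRIP2 and 3.20 and 3.13 for BRIP1. The MIR166a site, 204 bp upstream of the precursor of a miRNA that targets HD-ZIP III genes, had 3.06 and 3.26 for BRIP2 and 2.96 and 2.80 for BRIP1. The MIR167c site, 835 bp upstream, had 2.88 and 2.77 for BRIP2 and 2.32 and 2.54 for BRIP1. The MIR167d and MIR157c sites, 1226 and 579 bp upstream, had folds of 2.02 to 3.09. None of the 6 was among the strongest sites, and MIR160a ranked best, at 304.

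Many intervals held several sites. The 716 sites fell in 597 intervals between neighbouring protein-coding genes, of which 85 held 2 sites, 11 held 3 and 4 held 4. Of those with 4, the interval between DMC1 (a meiotic recombinase) and APS1 (an ATP sulfurylase), is 11681 bp long and also holds MIR167a. Its sites lay 3543, 1769 and 247 bp upstream and 1513 bp downstream of the MIR167a start. The first had folds of 6.03 and 5.53 for BRIP2 and 5.05 and 4.70 for BRIP1, the second 3.92 and 3.07 for BRIP2 and 3.11 and 2.94 for BRIP1, the third 3.14 and 3.72 for BRIP2 and 3.07 and 2.76 for BRIP1, and the last 2.57 and 2.22 for BRIP2 and 2.26 and 2.54 for BRIP1. The site farthest upstream was the highest in every library, and the one nearest to the microRNA was not.

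**Figure D5:**
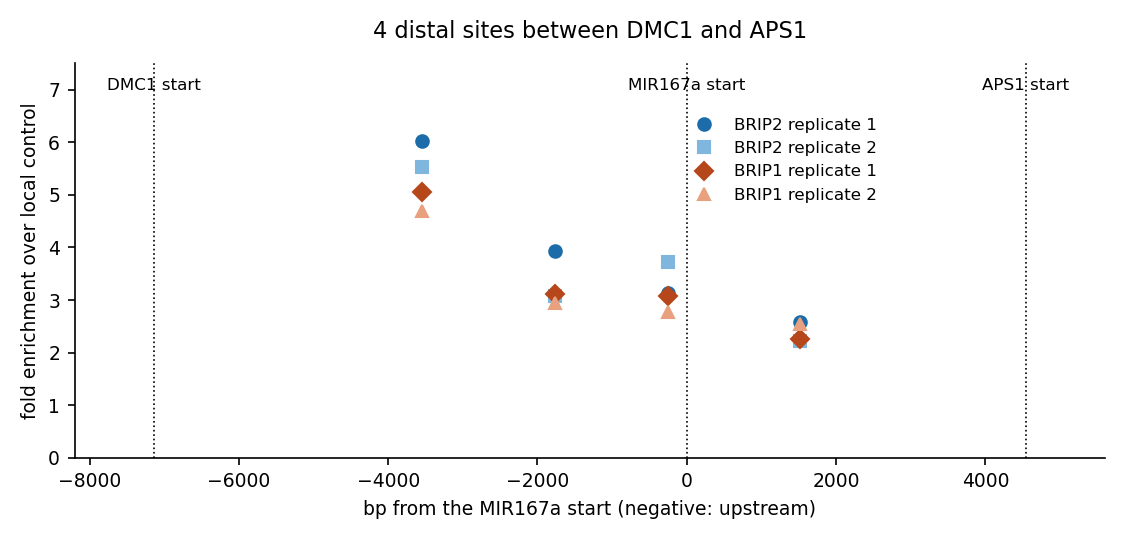
Fold enrichment over the local control (y axis) of the 4 distal sites between DMC1 and APS1 in each library (symbols), by distance from the MIR167a start in bp (x axis, negative upstream), with the starts of the genes as dotted lines. The site at -3543 bp is highest in all 4 libraries, at 4.70 to 6.03.

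The other intervals with 4 sites lay between AT3G60520 and GATA4, between AT5G22490 and FAR1, and between AT1G19835 and AT1G19840. In the interval of IAA2 and IAA7, which encode related Aux/IAA repressors, the strong site in the middle stood between sites of 2.21 and 2.97 for BRIP2 and 2.46 and 3.13 for BRIP1 on the IAA2 side, and of 2.18 and 2.52 for BRIP2 and 1.85 and 2.32 for BRIP1 on the IAA7 side. The interval of GRF2 and ANT, both regulators of organ growth, held 3 sites. The ANT site 4159 bp upstream had 3.42 and 4.21 for BRIP2 and 2.99 and 3.30 for BRIP1.

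BRIP2 and BRIP1 were compared at each site to ask where the related subunits differ. Over the 716 sites the median fold was higher for BRIP2 by 0.19 on the log2 scale before centring, and the difference was -0.05 once each library was centred on the median of all shared sites (exact two-sided permutation test, p = 0.33 in both cases, the smallest that 2 against 2 libraries allow). The excess of distal over other shared sites was 0.07 ± 0.004 on the log2 scale for BRIP2 and 0.13 ± 0.003 for BRIP1 (SD, n = 2 each), a difference of -0.06 (exact permutation test, p = 0.33). Both BRIP1 libraries showed a larger excess than both BRIP2 libraries.

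Few sites were called one by one, and with 2 libraries a protein a site left uncalled is not shown to be equal. A limma fit on log2 fold, centred on the median of each library and adjusted over all 3015 shared sites, called 1 of 716 distal sites higher in BRIP2 (0.14%, against 0.232% of all shared sites) and 3 lower (0.419%, against 0.232%). At an unadjusted p under 0.05 there were 132 distal sites (18.4%, against 17.3% of all shared sites). Both BRIP2 libraries lay above both BRIP1 libraries at 103 sites (14.4%, against 21.2% of all shared sites) and below them at 230 sites (32.1%, against 26.8%). These counts use centred values, and without centring the fit called 95 distal sites, 91 of them higher in BRIP2.

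The site called higher in BRIP2 lay 1522 bp upstream of AT5G05140, with folds of 4.07 and 4.04 for BRIP2 and 2.19 and 2.06 for BRIP1 (0.69 ± 0.13 SE on the log2 scale, limma adjusted p = 0.0498). Those called lower had their nearest TSS at AT1G23070, PRS and KAN2, each with the same limma adjusted p = 0.0498. PRS, a WOX homeodomain factor of lateral organ margins, had 2.30 and 2.27 for BRIP2 and 2.89 and 3.13 for BRIP1 at a site 2542 bp upstream (-0.64 ± 0.12 SE). KAN2, which specifies the abaxial side of organs, had 2.38 and 2.15 for BRIP2 and 3.05 and 2.89 for BRIP1 (-0.63 ± 0.12 SE). The KAN2 site lay 8882 bp from the TSS, on the 3′ side of the gene. AT1G23070 had 2.48 and 2.15 for BRIP2 and 2.68 and 3.49 for BRIP1 (-0.65 ± 0.13 SE).

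In each of the 4, the groups did not overlap, and all 4 adjusted values lie just under the threshold of 0.05. The count of called distal sites was 18 without BRIP2 replicate 1, 23 without BRIP2 replicate 2, 2 without BRIP1 replicate 1 and 1 without BRIP1 replicate 2. In these fits the remaining library of a protein is assumed to vary like those of the other protein. All 4 sites were kept without either BRIP2 replicate, AT5G05140 and AT1G23070 alone without BRIP1 replicate 1, and 0 of the 4 without BRIP1 replicate 2. On recovered pileups, AT5G05140 (0.50, limma adjusted p = 0.0824) and PRS (-0.51, limma adjusted p = 0.0646) were no longer called, and without the sites over a high local control AT1G23070 was not (limma adjusted p = 0.0509). AP2 and RAP2.4, an ERF-type factor, are examples of sites with higher uncentred BRIP2 values that were not called. RAP2.4 had 3.75 and 4.17 for BRIP2 and 2.43 and 2.23 for BRIP1 (0.52 ± 0.13 SE, limma adjusted p = 0.0853).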

How the data were processed

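Peak lists of 4 ChIP-seq libraries were used, and the other 14 of 18 samples were not analysed here. Groups came from the sample titles. Bowtie, deepTools, MACS2 2.1.1 and TAIR10 are named in the submitters' processing notes, which do not say what control library each list used. The authors called peaks per library, and the deposited lists hold a ratio (fold over the local control), −log10 p-value and −log10 q-value columns for each summit, and a score that was left aside. Because MACS2 adds 1 to pileup and control before taking their ratio and takes p from a Poisson tail, pileup and control were solved for. The solved pileups were whole within 0.05 for 99.8 to 99.9% of the peaks of a list, and the background control was 29.7 and 23.2 fragments for BRIP2 and 31.5 and 41.2 for BRIP1. That solution was added once the values were known. Intervals are 95% Wilson intervals and cover counting error only.

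RefSeq's TAIR10.1 genome and annotation gave the gene positions, and every nuclear peak fell within its nuclear chromosomes. Coordinates count from 1. Sites of BRIP2 and BRIP1 were compared with limma 3.58.1 (R 4.3.3) on log2 fold, with Benjamini-Hochberg adjustment over all shared sites and a threshold of 0.05, and tested on simulated data. Differences over libraries were tested by exact permutation. Python 3 scripts with numpy, pandas and scipy did the rest. Motifs were searched on both strands 100 bp to each side of the summit. A gene list takes genes by the form of their symbol.

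The sites, gene lists and motifs were chosen with earlier results of these data known. Named are the 12 sites of best mean rank of fold, the 5 farthest from a TSS, up to 8 in a non-coding gene or upstream of a microRNA gene, the 4 largest and 4 smallest BRIP2 minus BRIP1 differences, up to 3 genes per list with at least 3, and intervals with 3 or more sites. The 6 microRNA sites are described beside those 8. ARF6, ARF8, ARF10, ARF16 and ARF17, the second IAA2 and IAA7 sites and the remaining genes of the gibberellin and flowering time lists were named after their values were seen. Genes counted for a list are those nearest to a site. A symbol that named a different gene was removed from 1 list after it was seen.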

Additional observations from a re-analysis of the deposited data

How the results depend on the processing

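The number of distal sites stayed within 1.5 times of 716 under every alternative tried: 479 with peaks of −log10 q of at least 10, 494 with 50% reciprocal overlap, 528 with genes of every biotype in the rule, 659 with the rule at every summit, 774 from BRIP1 replicate 1 as base list and 735 to 930 with 1 library left out. The higher fold at distal sites kept its sign throughout, at 0.05 to 0.10 on the log2 scale. The width difference reversed to -0.75 bp with 50% reciprocal overlap, and the BRIP2 minus BRIP1 median reversed to -0.0516 on the log2 scale after centring on all shared sites. Without each replicate that median ran from 0.15 to 0.23 before centring.

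The count of distal sites called by limma was 4. It was 95 with no centring, 0 with peaks of −log10 q of at least 10, 7 on recovered pileups (2 of the 4 among them), 11 with 1 site kept per peak of another list and 1 to 23 with 1 library left out. With the replicate number as a block it was 0. Deviations of same-numbered libraries correlated at 0.01 over all shared sites and -0.01 over distal sites, and the libraries share only a number. The causes were not tested. Motif shares follow the window: with 50 and 150 bp to each side of the summit, 11.9 and 24.0% of sites held a G-box, 12.4 and 23.2% a TCP site, and 9.36 and 22.1% an RY element. The alternatives on high local control, on 1 site per peak and on leaving out libraries for the median were chosen after seeing the data. With 2 libraries a protein, no exact test could pass 0.05.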
